A study of Oryza sativa Japonica Group with 18 samples.

Results

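The calcineurin B-like (CBL) genes of rice were followed in the roots of Nipponbare seedlings with and without K+. The family members were the genes named CBL1 to CBL10 in the gene annotation, with or without the prefix Os, and each gene was read from its strongest probe set over the 6 groups. Of these 10 names, 9 were found in the gene table, OsCBL8 being the name without a match, and 7 genes were paired with a probe set: OsCBL2, OsCBL3, OsCBL4, OsCBL5, OsCBL6, OsCBL9 and OsCBL10. They had 8 of the 57194 probe sets on the array, with 2 for OsCBL9, and all 8 were among the 25165 probe sets kept for testing. OsCBL1 and OsCBL7 were paired with no probe set and were not analysed here.

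Seedlings of the japonica cultivar Nipponbare grew in nutrient solution for 2 weeks. They were then moved either to K+-replete solution with 1 mM K+ (CK) or to K+-free solution (LK). Whole roots were taken after 6 h, 3 d and 5 d. Each of the 6 groups had 3 Affymetrix rice genome arrays, 18 in all, and each array was hybridised with RNA pooled from 5 seedlings, so that no value belongs to a single plant. The labels number the arrays of a group as replicates, and the study calls them biological replicates. Neither says whether they came from separate cultures, and the p-values measure the spread between these arrays.

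CBL proteins are small Ca2+ sensors with EF hands, the helix-loop-helix motifs that hold the ion. Once loaded with Ca2+ they bind CBL-interacting protein kinases (CIPKs) and bring them to a membrane, where the kinase acts on a transport protein. In Arabidopsis, the pair of CBL1 and CBL9 with CIPK23 activates the K+ channel AKT1 when K+ is scarce, and in rice OsCBL1 with OsCIPK23 does so for OsAKT1. The numbers in rice names do not mark the closest Arabidopsis relative.

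Among the 7 CBL genes measured, OsCBL5 was up-regulated in K+-starved roots, by 1.54-fold at 3 d and 1.40-fold at 5 d. None of the other 6 genes passed the test in LK against CK at any time, and none of the 7 did at 6 h. OsCBL5 carries the synonyms CBL2 and CBL5 in the annotation, and it is called OsCBL5 here because the gene at LOC4352701 carries CBL2 alone. Its own locus is LOC4325962.

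At 6 h, the OsCBL5 signal (a hybridisation intensity on a linear scale) was 99.9, 113 and 123 on the 3 CK arrays and 114, 125 and 112 on the 3 LK arrays. The groups overlapped. At 3 d the CK arrays read 99.0, 141 and 146 and the LK arrays 206, 192 and 197. At 5 d the CK arrays read 131, 117 and 134 and the LK arrays 188, 172 and 176. At both later times every LK array lay above every CK array, and the LK arrays were also above all 6 arrays taken at 6 h.

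The group means of OsCBL5 were 112 ± 11.4 (CK) and 117 ± 6.71 (LK) at 6 h, 129 ± 25.7 and 198 ± 7.21 at 3 d, and 128 ± 8.99 and 179 ± 8.13 at 5 d (SD, n = 3 arrays). With limma's moderated test across all kept probe sets, the log2 fold change was 0.07 ± 0.12 (SE) at 6 h, with an adjusted p of 0.944. It was 0.65 ± 0.12 at 3 d with an adjusted p of 0.00133, and 0.49 ± 0.12 at 5 d with an adjusted p of 0.00664. The 95% intervals ran from 0.39 to 0.90 at 3 d and from 0.24 to 0.74 at 5 d. In whole roots, a change in the share of the cells that express a gene and a change in its RNA per cell cannot be told apart.

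**Figure D1:**
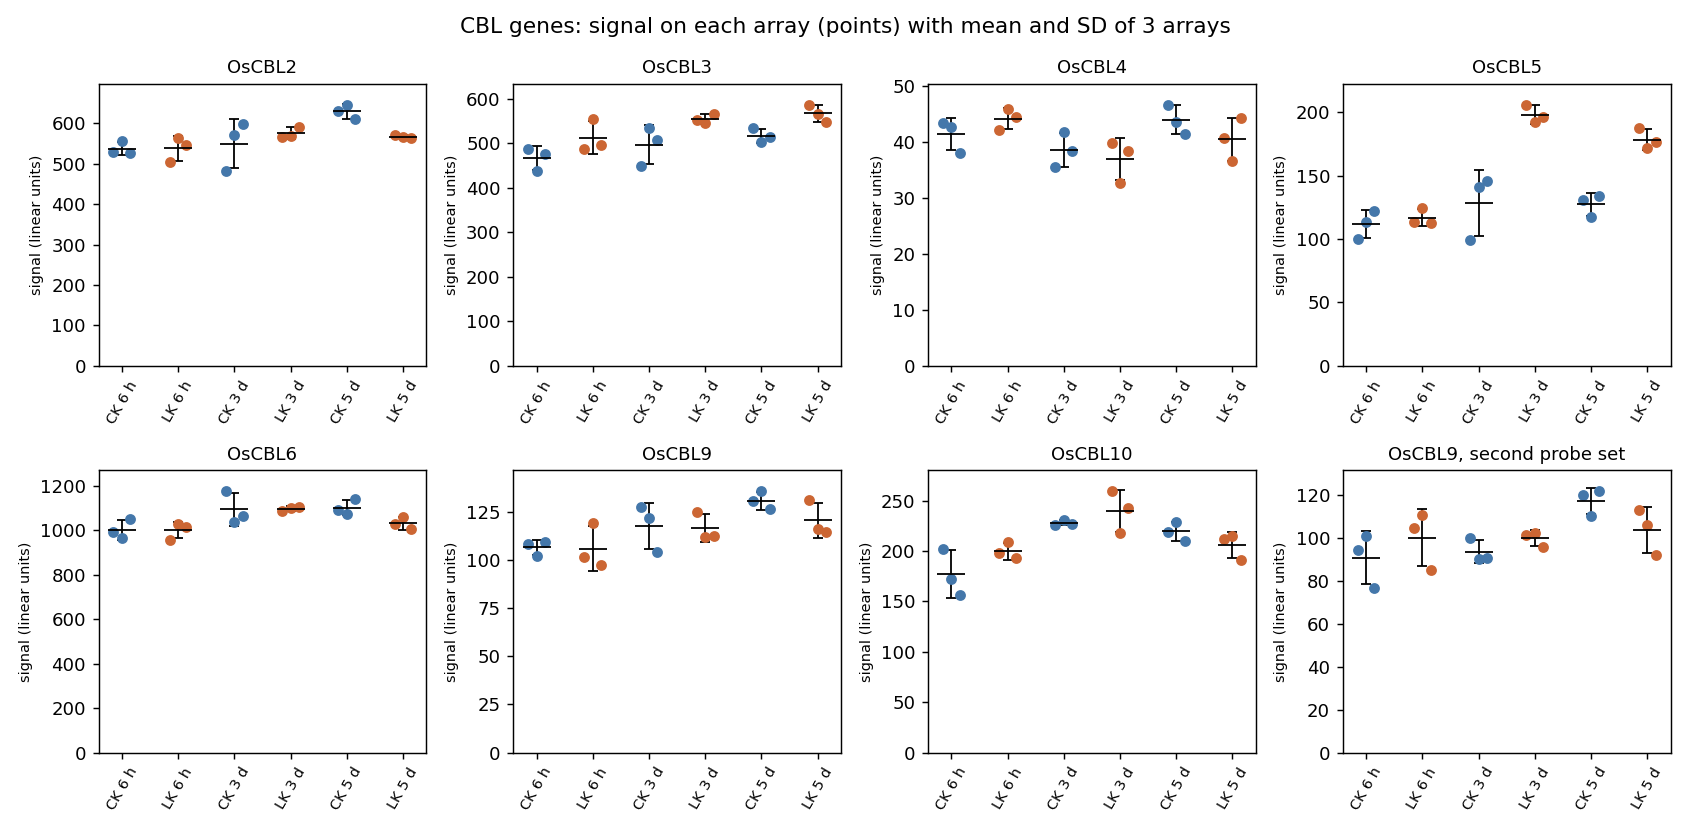
Signal on each array (points, linear intensity units) for the 7 CBL genes and for the second probe set of OsCBL9, by group (CK in blue, LK in orange), with the mean and SD of 3 arrays in black; each panel starts at 0 and has its own scale. The OsCBL5 points of LK at 3 d and 5 d, from 172 to 206, lie above all CK points, of which the highest is 146.

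The CK 3 d group had the widest spread of OsCBL5, with 99.0 on its first array beside 141 and 146. That array also had the lowest upper quartile of all signals, 124 against 131 to 142 on the others, and the lowest CK 3 d reading of OsCBL2, OsCBL3 and OsCBL4. It was the lowest for OsCBL10 too, by a small margin (226 beside 227 and 231). For OsCBL6 and OsCBL9 it gave the highest reading of its group. Without it, the OsCBL5 log2 fold change at 3 d was 0.47, and the call stood. Over the 15 alternative ways of processing, the OsCBL5 log2 fold change ranged from 0.47 to 0.75 at 3 d and from 0.40 to 0.52 at 5 d, and the adjusted p was at most 0.0227 and 0.0363, so that both calls stood throughout.

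Calls over the whole array give the scale for these counts. At 6 h, 0 of the 7 CBL genes passed, where limma called 0.529% of all kept probe sets. An unadjusted p under 0.05 was found for 0 of the 7 and for 2330 of the 25165 kept probe sets. At 3 d, 1 of 7 was higher under LK, where 8.5% of all kept probe sets were higher and 14.3% were called in either direction. At 5 d, 1 of 7 was higher, where 10.5% were higher and 23.3% were called in either direction. A single gene of 7 is near these shares, so that the counts do not set the family apart from the other probe sets. At 3 d the call of more higher (2140) than lower (1448) probe sets over the array turned to 1798 and 2136 under quantile normalization, and at 6 h 68 and 65 became 62 and 39 with median centring. At 5 d, 2643 higher and 3210 lower became 3172 and 3094 under quantile normalization and 2711 and 2490 with median centring, while the CBL counts stayed the same.

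Of the 6 CBL genes other than OsCBL5, the 95% intervals of the log2 fold change bound what these arrays could have missed. They reached from -0.22 for OsCBL9 to 0.37 for OsCBL10 at 6 h. At 3 d they reached from -0.31 for OsCBL4 to 0.31 for OsCBL3, which is 1.24-fold either way, and at 5 d from -0.36 for OsCBL4 to 0.28 for OsCBL3. The median log2 fold change of the 7 genes was 0.07, 0.07 and -0.10 in order of time, beside -0.00, 0.04 and -0.03 over all kept probe sets. Taken without sign, the medians were 0.07, 0.07 and 0.12 for the family and 0.08, 0.13 and 0.16 for all.

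**Figure D2:**
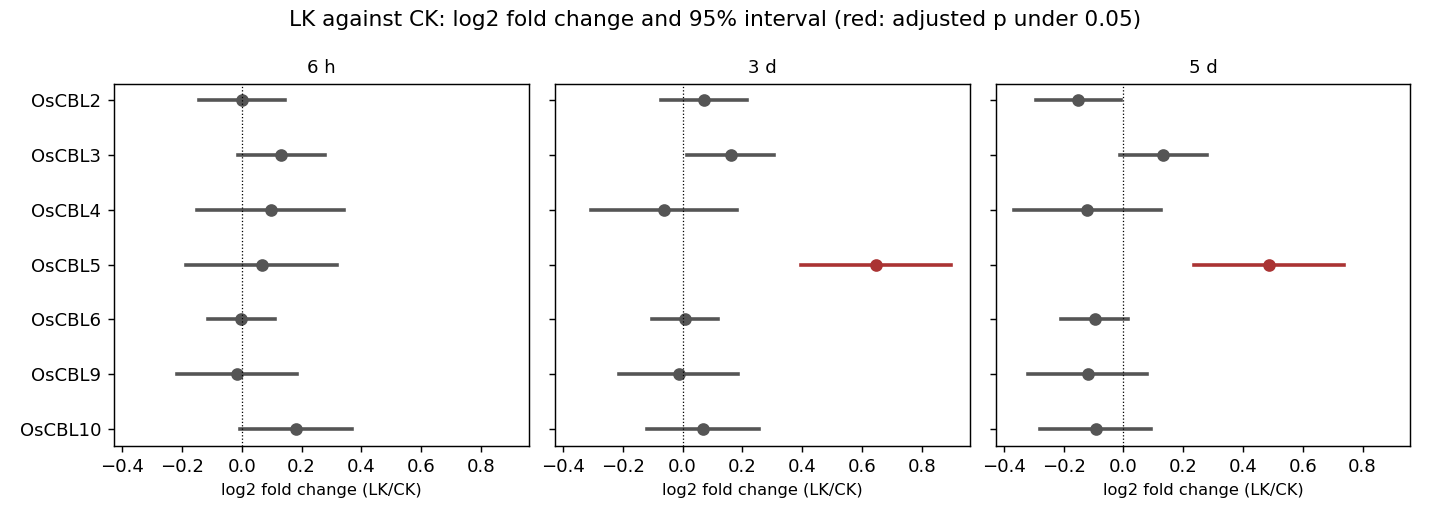
Log2 fold change of LK over CK (points, horizontal axis) with its 95% interval (lines) for the 7 CBL genes at each of the 3 times, from the limma fit; red marks an adjusted p under 0.05. OsCBL5 at 3 d (0.65) and 5 d (0.49) are the values in red, and the intervals of the other 6 genes lie between -0.36 and 0.37.

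OsCBL3 (LOC4333502) shares its number with an Arabidopsis sensor of the vacuolar membrane. At 3 d its CK arrays read 449, 535 and 507 and its LK arrays 553, 545 and 566, and at 5 d they read 534, 504 and 514 against 588, 567 and 548. The LK arrays were above the CK arrays at both times, yet by 1.12-fold and 1.10-fold only. The log2 fold changes of OsCBL3 were 0.16 ± 0.07 at 3 d, with an unadjusted p of 0.0318 and an adjusted p of 0.133 (limma), and 0.13 ± 0.07 at 5 d with an adjusted p of 0.18, neither of which passed. At 6 h it was again 0.13 ± 0.07, with overlapping arrays and an adjusted p of 0.602.

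OsCBL2 (LOC4352701) is known in rice from the vacuolar membrane of the aleurone, the outer layer of the grain. Its CK arrays at 5 d read 631, 647 and 610.4 and its LK arrays 570.3, 567 and 564, which do not overlap. OsCBL2 was 1.11-fold lower in LK, a log2 fold change of -0.15 ± 0.07 with an unadjusted p of 0.0411 and an adjusted p of 0.124 (limma), and it did not pass. At 3 d its groups overlapped, with CK arrays from 483 to 598 and LK arrays from 566 to 592, and at 6 h the log2 fold change was -0.00 ± 0.07.

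OsCBL6 (LOC4351575) showed a like picture at 5 d, with CK arrays of 1093, 1073 and 1140.0 and LK arrays of 1028, 1061 and 1004. Its log2 fold change was -0.10 ± 0.05 and its adjusted p 0.21 (limma), so that it did not pass. At 6 h and 3 d the OsCBL6 groups overlapped and the log2 fold changes were -0.00 and 0.01. In all, the CK and LK arrays did not overlap for 0 of 7 genes at 6 h, 2 of 7 at 3 d and 4 of 7 at 5 d. Over all kept probe sets, 13.2%, 29.6% and 42% did not overlap, beside 0%, 28.6% and 57.1% in the family.

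OsCBL10 (LOC4325933) has been tied in rice to tolerance of flooding during germination, and its Arabidopsis namesake to salt tolerance. At 6 h the CK arrays read 202, 173 and 156 and the LK arrays 198, 209 and 193, with overlap. The log2 fold changes of LK were 0.18, 0.07 and -0.09 in order of time, each with an SE of 0.09, and the adjusted p were 0.565, 0.654 and 0.491 (limma). OsCBL4 (LOC4339432) works in rice with OsCIPK24 on the Na+/H+ exchanger OsSOS1, as SOS3 does in Arabidopsis. It had signals of 32.7 to 46.7 over the 18 arrays, close to the lowest mean signal kept for testing, 32.2, and its groups overlapped at all 3 times.

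The OsCBL9 gene (LOC9269084) had 2 probe sets, both of a type that can bind several transcripts. The main one ranged from 97.3 to 136 over the 18 arrays, its groups overlapped at each time, and its log2 fold changes were -0.02, -0.01 and -0.12 in order of time. The second probe set gave 0.14, 0.09 and -0.18, with adjusted p of 0.795, 0.634 and 0.273 (limma). Over the 18 arrays both probe sets had a Pearson r of 0.60, a description of arrays that share their groups. They pointed in different directions at 6 h and 3 d, and neither passed at any time.

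Whether the LK effect differed between times was tested in the same fit. For OsCBL5 the effect at 3 d was larger than at 6 h by 0.58 ± 0.17 on the log2 scale, with an unadjusted p of 0.00309 and an adjusted p of 0.0765, and it did not pass. Between 5 d and 6 h the difference was 0.42 ± 0.17 with an adjusted p of 0.131, and between 5 d and 3 d it was -0.16 ± 0.17 with an adjusted p of 0.74. The absence of a call at 6 h thus does not show that OsCBL5 responded differently there.

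None of the 7 CBL genes passed in any of these 3 tests of a difference with limma, where 2.88% (3 d against 6 h), 1.03% (5 d against 3 d) and 10.2% (5 d against 6 h) of all kept probe sets were called. At an unadjusted p under 0.05 the counts were 3715, 3013 and 5983 of the 25165 kept probe sets, and 1, 1 and 2 of 7 in the family. The 1 gene at 5 d against 3 d was OsCBL2, at -0.22 ± 0.10 with an adjusted p of 0.375. OsCBL10 was the gene besides OsCBL5 at 5 d against 6 h, at -0.27 ± 0.13 with an adjusted p of 0.191. All 7 differences between 5 d and 3 d were below 0, and the median over all kept probe sets was also below 0, at -0.07.

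**Figure D3:**
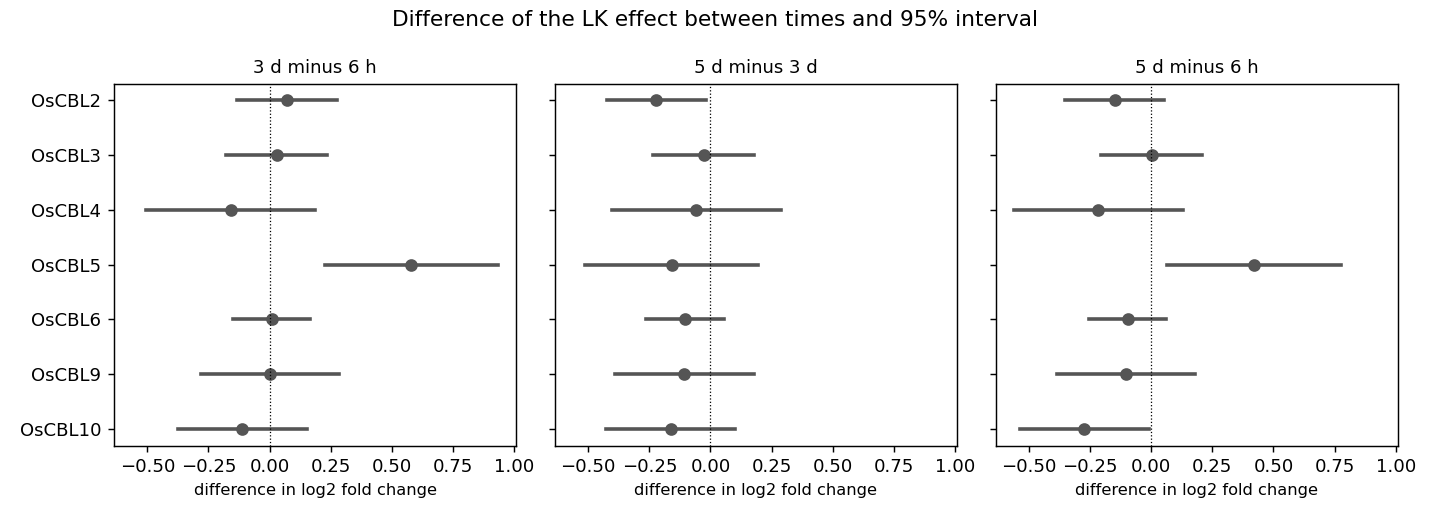
Difference of the LK log2 fold change between times (points) with its 95% interval (lines) for the 7 CBL genes: 3 d minus 6 h, 5 d minus 3 d and 5 d minus 6 h, from the limma fit. OsCBL5 stands highest at 3 d minus 6 h (0.58) and 5 d minus 6 h (0.42), and no gene passed an adjusted p of 0.05.

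In control roots, OsCBL10 was the CBL gene that changed with time. Its CK arrays read 202, 173 and 156 at 6 h and 226, 231 and 227 at 3 d, which do not overlap. The mean rose from 177 ± 23.4 to 228 ± 2.61 (SD, n = 3 arrays), 1.29-fold, with a log2 fold change of 0.37 ± 0.09 and an adjusted p of 0.00807 (limma). One of 7 CBL genes was thus called higher at 3 d than at 6 h in CK roots, where 5.91% of all kept probe sets were higher and 15.1% were called. The call of OsCBL10 was lost when only these arrays entered the fit, at an adjusted p of 0.0658.

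Other features moved with time in the same CK roots. The summed signal of 5 green tissue genes, such as the light-harvesting protein gene OsCAB2R, was 2139 to 2921 on the CK arrays at 6 h and 4454 to 6295 at 3 d, with 3 of the 4 genes kept for testing called higher. Of the 5, OsRBCS1 was below the floor of 10 set for testing, with group means of 3.56 to 6.72. Of 5 clock genes, 2 were called higher and 3 lower at 3 d (limma). Among them OsCCA1 rose from 130 to 780, a log2 fold change of 2.59. OsPRR1 went from 480 to 251, a log2 fold change of -0.94. Hour of sampling, age of the plants and time in the solution move together here and cannot be told apart, and their part in the rise of OsCBL10 was not tested.

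Between 3 d and 5 d, 0 of 7 CBL genes passed in CK roots with limma, where 9.2% of all kept probe sets were called. An unadjusted p under 0.05 was found for 6536 of the 25165 kept probe sets and for 1 of 7 CBL genes. That gene was OsCBL2, with CK arrays of 483, 570.0 and 598 at 3 d below the 5 d values given above. It was 1.14-fold higher at 5 d, with a log2 fold change of 0.20 ± 0.07 and an adjusted p of 0.0731. The second OsCBL9 probe set was 1.25-fold higher at 5 d, with an adjusted p of 0.0822, and did not pass.

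The green tissue genes bear on the LK comparisons too. At 6 h their summed signal was 2139 to 2921 in CK and 2883 to 3530 in LK, with overlap. There 0 of 4 green genes were called (limma, with 3 at an unadjusted p under 0.05). Of the 25165 kept probe sets, 2330 had an unadjusted p under 0.05 at 6 h and 7136 at 3 d. Of 5 clock genes at 6 h, 1 was called higher in LK and 0 lower. This was OsCCA1, higher by 0.46 on the log2 scale (adjusted p 0.00493, limma). The summed green signal was 4454 to 6295 in CK and 5085 to 6483 in LK at 3 d. At 3 d, 0 of the 4 green genes tested were called (limma, also 0 at an unadjusted p under 0.05). At 5 d the green sum was 5452 to 6286 in CK and 6657 to 7872 in LK, with 2 of 4 called higher. These were OsRCABP69 (adjusted p 0.0468, limma) and OsRBCS (adjusted p 0.0104). OsRBCS spread widely in LK at 5 d, 514 ± 285 (SD, n = 3 arrays). Its other kept probe sets gave log2 fold changes of -0.17 (adjusted p 0.307) and 1.96 (adjusted p 0.00799). The summed signal of 4 root genes, such as the silicon transporter gene OsLsi1, was 8857 to 9594 in CK and 8438 to 9242 in LK at 3 d, with overlap and 0 of 4 called (limma, with 1 at an unadjusted p under 0.05). At 5 d it was 9678 to 9947 in CK and 8769 to 9161 in LK, without overlap. There OsSCR1, a gene of root patterning, was higher by 0.38 on the log2 scale (adjusted p 0.0432, limma), and the silicon efflux gene OsLsi2 fell by 0.20 (adjusted p 0.0241). The part of green tissue RNA and of these shifts in the OsCBL5 differences at 3 d and 5 d was not tested.

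Over the 6 groups, OsCBL5 had the widest range of the family, its highest group mean (LK 3 d) being 1.77 times its lowest (CK 6 h). In rising order its groups were CK 6 h, LK 6 h, CK 5 d, CK 3 d, LK 5 d and LK 3 d. Neighbours among the first 4 overlapped, whereas LK 5 d was apart from CK 3 d and LK 3 d from LK 5 d. The same ratio was 1.35 for OsCBL10, 1.24 for OsCBL9, 1.21 for OsCBL3, 1.19 for OsCBL4, 1.17 for OsCBL2 and 1.10 for OsCBL6.

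The order of the groups differed between the genes. OsCBL10 was lowest in CK 6 h and highest in LK 3 d, and each neighbour in its order overlapped the next. OsCBL3 was lowest in CK 6 h and highest in LK 5 d, with its only gap between neighbours below LK 3 d. OsCBL2 had its highest mean in CK 5 d, 630 ± 18.2 (SD, n = 3 arrays), apart from its neighbour LK 3 d, and OsCBL6 and OsCBL9 were also highest in CK 5 d, with overlap. OsCBL4 was lowest in LK 3 d and highest in LK 6 h, and all its neighbours overlapped.

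The SD of the log2 signal over the 18 arrays was 0.35 for OsCBL5, larger than that of 88.5% of all kept probe sets. It was 0.17 for OsCBL10 and 0.08 for OsCBL6, larger than that of 46.6% and 5.4%. The median over the 7 genes was 0.14, beside 0.18 over all kept probe sets. OsCBL6 thus varied little in these roots, between 958 and 1176.

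Over the 18 arrays the log2 signals of OsCBL3 and OsCBL5 had a Pearson r of 0.81, the highest of the 21 pairs among the 7 genes. The other pairs lay between -0.50 for OsCBL4 with OsCBL6 and 0.58 for OsCBL6 with OsCBL9. With each group's mean taken out, OsCBL3 and OsCBL5 had an r of 0.62 and OsCBL2 and OsCBL5 had 0.69. These are descriptions over arrays that share their groups and their scaling, and the first CK 3 d array was low for each of these genes.

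Among 85 kept probe sets of genes with a symbol, the closest to OsCBL5 by Pearson r over the 18 arrays were PP2C53, P5CS1 and OsSPO11B. These genes were chosen by likeness to a gene already called in LK against CK, on the same arrays. Their own rises under LK follow in part from that choice and are no separate evidence. PP2C53, a protein phosphatase gene, had an r of 0.86, and its log2 fold changes (0.14 at 3 d, 0.24 at 5 d) did not pass, with adjusted p of 0.324 and 0.0566 (limma). P5CS1, which encodes an enzyme of proline synthesis, had an r of 0.85 and rose at 3 d by 0.39 and at 5 d by 0.28, with adjusted p of 0.00251 and 0.0135. OsSPO11B, a gene of the family that makes DNA breaks in meiosis, had an r of 0.84 and rose by 0.57 and 0.44, with adjusted p of 0.00065 and 0.00312, on a probe set that can bind several transcripts. With group means taken out, r was 0.60, 0.51 and -0.05, so that the likeness of OsSPO11B lay between groups and not within them.

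The CIPK kinases are the partners of CBL proteins. Of 24 CIPK genes matched by name to a probe set, 22 were kept, and other CIPK genes were not analysed here. LK against CK called 0 at 6 h (limma, with 7 at an unadjusted p under 0.05), 5 higher and 3 lower at 3 d, and 6 higher and 4 lower at 5 d. At 6 h, 2330 of the 25165 kept probe sets had an unadjusted p under 0.05. The median log2 fold changes of the CIPK list were 0.12, 0.14 and 0.16. At 6 h the CIPK count was 2 higher under quantile normalization. Over the alternatives, the higher calls at 3 d ranged from 3, with only the arrays compared, to 6, and the lower calls from 0, without the third CK 3 d array, to 3. Over all kept probe sets, 8.5% were higher and 14.3% called at 3 d, and 10.5% and 23.3% at 5 d. Placed beside the CBL counts of 0, 1 and 1 of 7, the CIPK counts are separate counts whose difference was not tested.

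OsCIPK23, the kinase of the AKT1 pathway, rose from 1692 in CK to 2697 in LK at 3 d, 1.59-fold, with an adjusted p of 6.87e-07 (limma), and 1.55-fold at 5 d with an adjusted p of 6.82e-07. Its second probe set went from 450.2 to 479 at 3 d, with an adjusted p of 0.4, so that the probe sets of OsCIPK23 disagreed. OsCIPK6 rose from 70.3 to 168 at 3 d, 2.39-fold, with an adjusted p of 6.28e-07. OsCIPK2 rose 1.45-fold at 3 d, with an adjusted p of 1.01e-05, on a probe set that can bind several transcripts, and its other 2 probe sets also passed at 3 d. At 5 d OsCIPK14 rose 1.46-fold with an adjusted p of 4.34e-06, on a probe set that may also read OsCIPK15, and OsCIPK31 fell from 138 to 67.3, a log2 fold change of -1.03 with an adjusted p of 5.2e-06.

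**Figure D4:**
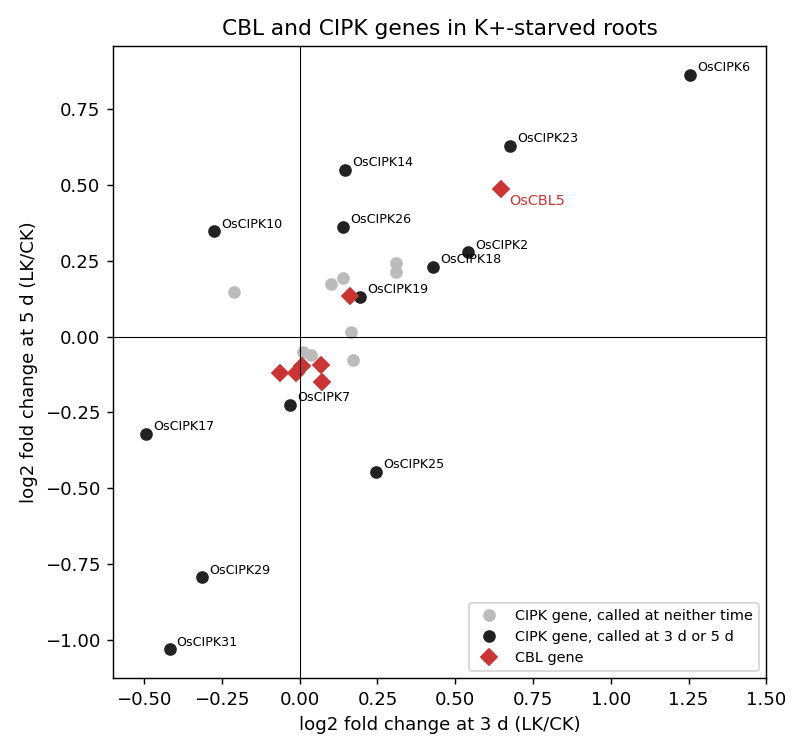
Log2 fold change of LK over CK at 3 d (horizontal) and 5 d (vertical) for the 7 CBL genes (red diamonds) and 22 CIPK genes (circles, black and named where called at 3 d or 5 d, grey otherwise). OsCBL5 lies at 0.65 and 0.49 on the upper right, as OsCIPK6 and OsCIPK23 do, and the other 6 CBL genes lie near the origin.

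Transport proteins on which these pairs act, or which carry K+ and Na+ in roots, were counted from a list of 6 genes, all kept. Of these transport genes, LK against CK called 1 higher at 6 h. Both at 3 d and at 5 d it called 2 in each direction. Over the alternatives, the lower calls ranged from 0 to 2 at both times. Calls in either direction made up 0.529%, 14.3% and 23.3% of all kept probe sets in order of time. Transport genes outside the list were not analysed here, among them a further OsHKT gene that the paper reports as strongly up-regulated. Counts from 6 chosen genes thus do not describe K+ and Na+ transport genes as a whole. OsHAK1, a high-affinity K+ transporter gene, rose 1.17-fold at 6 h, 1.22-fold at 3 d and 1.25-fold at 5 d, with adjusted p of 0.0135, 9.88e-05 and 1.16e-05 (limma). Its main probe set can bind several transcripts. The second OsHAK1 probe set also passed at these times, with adjusted p of 0.0466, 0.000894 and 0.000134. The 6 h call of OsHAK1 was lost in 7 of 15 alternatives. OsKCO1, which encodes a K+ channel of the vacuolar membrane, rose 1.37-fold and 1.45-fold at 3 d and 5 d, with adjusted p of 0.0035 and 0.000574.

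OsHKT1;5, a Na+ transporter gene, fell from 59.9 to 36.5 at 3 d, a log2 fold change of -0.71 with an adjusted p of 0.00951 (limma). That call was lost with a floor of 50, where the log2 fold change was -0.25. OsAKT1, the K+ channel gene, read 1433 in CK and 1247 in LK at 5 d, a log2 fold change of -0.20 with an adjusted p of 0.0478, and this call was lost in 11 of 15 alternatives. The OsAKT1 probe set can bind several transcripts. At 6 h the OsAKT1 log2 fold change was 0.30, with an adjusted p of 0.0652.

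Other Ca2+ sensors, among them calmodulins, calmodulin-like proteins (CML) and Ca2+-dependent protein kinases, made a list of 47 genes, of which 40 were kept. LK against CK called 0 of these sensors at 6 h (limma, with 2 at an unadjusted p under 0.05), 2 higher and 3 lower at 3 d, and 5 higher and 6 lower at 5 d, beside shares of 14.3% and 23.3% over the whole array at these later times. The unadjusted p was under 0.05 for 2330 of the 25165 kept probe sets at 6 h. The lower calls at 3 d ranged from 1, without the second LK array, to 4, and the higher calls ranged from 0 to 7 over the alternatives at both later times, with 0 at 3 d without the second CK array or the third LK array and 0 at 5 d without the first CK array. The protein kinase gene OsCDPK9, also named OsCPK9, fell from 195 to 132 at 3 d and from 223 to 137 at 5 d, with adjusted p of 0.00214 and 0.000178 (limma). OsCCaMK, the Ca2+ and calmodulin-dependent kinase of root symbiosis, fell by 0.35 at 3 d and 0.77 at 5 d on the log2 scale, with adjusted p of 0.0155 and 1.04e-05. Its second probe set gave 0.17 and -0.07 with no call.

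OsCML14 rose from 843 to 1119 at 3 d with an adjusted p of 0.0271 (limma), a call lost in 6 of 15 alternatives. OsCML11 fell from 247 to 169.9 at 5 d with an adjusted p of 0.000619. The medians of the log2 fold change over these 40 sensors were -0.00, 0.02 and -0.02 in order of time.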

How the data were processed

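The authors hybridised root RNA to 18 Affymetrix rice genome arrays, processed the scans with GCOS 1.0 and MAS 5.0, per the submitters' processing notes, and normalized the arrays together in dChip. The deposited values are linear signal intensities, with no detection calls used here, and no probe-level files were used. Groups came from the labels, and 0 columns stayed unmapped. Signals under 10 were raised to 10 and put on the log2 scale. Testing was limited to the brightest 44% of probe sets, after the share that the methods count as expressed, with a lowest geometric mean of 32.2. One limma fit (limma 3.58.1, R 4.3.3, with data.table, version 1.17.8) held the 6 groups and no covariate, with 12 residual degrees of freedom, an intensity trend and Benjamini-Hochberg adjustment over the 25165 kept probe sets in each contrast. A probe set was called at an adjusted p under 0.05. Folds are ratios of mean linear signals. Fits were tested on simulated data, and figures were drawn with Python 3.11.15 and matplotlib 3.10.9. Array medians were 22.1 to 23.4, no arrays were identical, and the number of arrays limits the precision.

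Probe sets were named from the platform annotation and the gene table where they had a single gene (22436 probe sets; 95 had several genes and 34663 none named here). Named besides the CBL genes were the 3 genes most like each member called in LK against CK, and from each list the 3 called genes with the smallest adjusted p at 3 d and at 5 d. The members and lists were chosen with earlier results of these data known. Alternatives were other filters, scalings, a floor of 50, log2 of the signal plus 32, separate fits of the arrays compared, the replicate number as a block, a variance prior without the trend, leaving out 1 array at a time, and a call rule of 1.2-fold with an unadjusted p under 0.05. No coordinates or sequences are given, since the files name no genome build and no sequence of these genes was at hand.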

Additional observations from a re-analysis of the deposited data

Results flagged for a closer look

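No CBL gene passed the test of a difference of the LK effect between times, which does not show that the effects were alike, and single distant arrays were not tested for in groups of 3. Among the other genes named, limma's test of the difference of the LK effect between times passed for 15 results. These genes were picked on the same arrays, by their adjusted p at 3 d or 5 d or by likeness to OsCBL5. Their passing is thus not independent of that choice. Over all kept probe sets, 2.88% (3 d against 6 h), 1.03% (5 d against 3 d) and 10.2% (5 d against 6 h) were called. At 3 d against 6 h the log2 fold change was higher by 1.10 for OsCIPK6, 0.48 for OsCIPK23 and 0.71 for OsSPO11B, with adjusted p of 0.000461, 0.00283 and 0.00678, and for OsAKT1 it differed by -0.44, with an adjusted p of 0.0203. At 5 d against 3 d it was higher by 0.40 for OsCIPK14, with an adjusted p of 0.0265.

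At 5 d against 6 h the LK effect was higher by 0.71 for OsCIPK6, 0.43 for OsCIPK23, 0.36 for OsCIPK14, 0.53 for OsKCO1 and 0.57 for OsSPO11B, with adjusted p from 0.00259 to 0.0195. It differed by -0.90 for OsCIPK31, -0.51 for OsAKT1, -0.59 for OsCDPK9, -0.45 for OsCCaMK and -0.56 for OsCML11, with adjusted p from 0.00172 to 0.0355.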

How the results depend on the processing

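The counts of CBL genes called in LK against CK (0, 1 and 1 at 6 h, 3 d and 5 d) were the same under every alternative run. In CK roots, the count at 3 d against 6 h was 0 when only the arrays compared entered the fit. With each array left out in turn it ranged from 1 to 2, OsCBL5 being the second (0.36, adjusted p 0.016 without the first CK 3 d array), and at 5 d against 3 d it ranged from 0 to 1, with OsCBL2 called without the third CK 3 d array (0.26, adjusted p 0.0316). The counts of differences between times ranged from 0 to 1 for 3 d against 6 h, where OsCBL5 passed without the first CK 6 h array (adjusted p 0.0491) or the third CK 3 d array (0.0423), and from 0 to 1 for 5 d against 6 h, where OsCBL10 passed without the first CK 6 h array (-0.37, adjusted p 0.0464). Of 966 single-gene comparisons in 28 settings, 959 kept their side of the threshold, 1 was lost, 6 were gained and 0 reversed, and 77 values that passed neither as reported nor in that setting changed sign. Among the other genes, calls lost by leaving out 1 array were P5CS1 at 5 d (CK replicate 3, adjusted p 0.0663), OsCCaMK at 3 d (LK replicate 2, 0.0636), OsCML14 at 3 d (CK replicate 2 or 3, LK replicate 1 or 3, up to 0.095), OsHAK1 at 6 h (CK or LK replicate 2 or 3, up to 0.0665) and OsAKT1 at 5 d (any array but LK replicate 2, up to 0.166). Scaling moved the split of all kept probe sets at 3 d from 2140 higher and 1448 lower to 1798 and 2136 with quantile normalization and 1558 and 1456 with median centring, and at 5 d from 2643 and 3210 to 3172 and 3094, and 2711 and 2490. The cause of these shifts was not tested.

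The labels do not say that equal replicate numbers pair arrays. The deviations of same-numbered CK and LK arrays from their group means had r from -0.09 to 0.26, and 5 of 9 CK arrays were closest to the LK array of their number, as were 6 of 9 LK arrays to the CK array of theirs. Arrays of other numbers had r from -0.40 to 0.36, so that these values do not settle whether the numbers mark pairs. The main fit did not take the numbers as pairs. With the replicate number as a block, the OsCBL5 effects kept their calls (adjusted p 0.00371 at 3 d and 0.0115 at 5 d), and the CK count at 5 d against 3 d was 1, OsCBL2, with an adjusted p of 0.0466. Signals near the lowest kept mean, as for OsCBL4, limit what could be seen.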
